A study of Mus musculus with 2 samples.

Results

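Adipoq, Adipor1 and Adipor2, the genes of the hormone adiponectin and of its 2 receptors, were followed through marrow stromal and blood cells. They are 3 of the 32286 features in each count matrix and were taken by symbol. The cells came from 2 single-cell libraries of male mice, chase and pulse. Both carried Adipoq-CreERT2, a recombinase that acts under tamoxifen in cells using the Adipoq gene, together with the Ai9 allele, from which tdTomato is made permanently once Cre has acted. All mice were given tamoxifen by gavage on 3 days at 8 weeks of age, and 4 weeks (chase) or 24 h (pulse) later the endosteal fraction of femurs and tibias was digested and its bright tdTomato cells were taken by flow sorting. The sort kept 0.29% of all cells for the chase library and 0.01% for the pulse library. Chase mice were therefore also older, and the series used 4 mice whose split between the libraries the labels do not state. Because the reporter depends on Adipoq use, the sort itself favours cells that had transcribed Adipoq, so the levels below describe sorted cells, not marrow at large.

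Adiponectin is a secreted hormone with a collagen-like stalk and a C1q-like head, which assembles into trimers and larger complexes in the endoplasmic reticulum before release. AdipoR1 and AdipoR2 are 7-transmembrane proteins of the PAQR family with inverted topology, whose known downstream steps include the adaptor APPL1, AMP-activated kinase (AMPK) and PPARalpha. Fat cells are the classical source of the hormone, and CXCL12-abundant reticular (CAR) cells of marrow, stromal cells that support blood formation and are precursors of marrow fat and bone cells, also transcribe Adipoq.

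In GRCm38 (mm10), Adipoq (ENSMUSG00000022878) lies on the plus strand at chr16:23146536-23158028, Adipor1 (ENSMUSG00000026457) on the plus strand at chr1:134415378-134433351 and Adipor2 (ENSMUSG00000030168) on the minus strand at chr6:119353150-119417704, and no other gene of the GENCODE annotation overlaps them. The 250 bases before the outermost RefSeq start of each gene (RefSeq, GRCm38.p6) are shown because the hormone gene and the receptor genes differ there in base composition. They cover chr16:23146286-23146535 for Adipoq, chr1:134415128-134415377 for Adipor1 and chr6:119388735-119388984 for Adipor2, each printed 5′ to 3′ on the gene's strand with every CG pair in capitals. The RefSeq starts of Adipoq and Adipor1 are those of the GENCODE gene, while that of Adipor2 lies 28970 bases inside the longer GENCODE gene and 48 bases from the start of 1 of its 5 GENCODE transcripts.
Adipoq: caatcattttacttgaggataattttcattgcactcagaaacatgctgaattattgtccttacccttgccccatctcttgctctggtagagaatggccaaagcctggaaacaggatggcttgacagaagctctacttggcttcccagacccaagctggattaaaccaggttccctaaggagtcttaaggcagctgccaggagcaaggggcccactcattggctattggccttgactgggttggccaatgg
Adipor1: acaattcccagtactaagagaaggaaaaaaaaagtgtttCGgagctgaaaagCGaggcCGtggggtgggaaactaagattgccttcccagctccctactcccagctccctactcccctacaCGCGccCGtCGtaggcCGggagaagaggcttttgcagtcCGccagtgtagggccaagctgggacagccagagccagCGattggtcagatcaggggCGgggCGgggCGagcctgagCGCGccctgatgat
Adipor2: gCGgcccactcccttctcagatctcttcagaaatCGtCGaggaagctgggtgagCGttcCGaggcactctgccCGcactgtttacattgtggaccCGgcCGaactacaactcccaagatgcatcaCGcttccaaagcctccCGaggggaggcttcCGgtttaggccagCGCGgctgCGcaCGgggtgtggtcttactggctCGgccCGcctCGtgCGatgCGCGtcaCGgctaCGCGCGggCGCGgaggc
The Adipoq stretch had 0 CG pairs, Adipor1 had 15 and Adipor2 had 27, against a median of 6 over 27018 RefSeq promoters, of which 8.25% had none. The letters CCAAT, searched on both strands, occurred 3 times before Adipoq, 1 time before Adipor1 and 0 times before Adipor2, and 34.5% of all promoters held at least 1. GGGCGG, which itself contains a CG pair, occurred 2 times before Adipor1 and 0 times before Adipoq and Adipor2 (32.9% of promoters held it), and TATAAA occurred before none of the 3 (13% of promoters held it). Levels are given as CPM, the UMIs (counted molecules) of a gene per 1000000 UMIs of the cells. Among genes at 20 CPM or more in both libraries in at least 1 of 5 cell classes, 9 of 61 genes with no CG pair (14.8%) reached that level in all 5 classes, as did 1618 of 3882 genes with 15 or more (41.7%) and 2432 of all 6646 (36.6%). Adipor1, with 15 CG pairs, was above 20 CPM in all 5 classes. Adipoq and Adipor2 do not follow this contrast. Adipoq, with 0 CG pairs, was above 20 CPM in all 5 classes, and Adipor2, with 27, was not (18.2 CPM and 16.1 CPM in osteoblasts). Adipoq passed only narrowly in osteoblasts (23.7 CPM in chase, 32.0 CPM in pulse) and blood cells (30.9 and 36.4 CPM). The source of those UMIs was not tested, so they are not read as use of the promoter.

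Cells were put into classes by marker genes that did not include Adipoq, Adipor1 or Adipor2. The 5 classes held, in chase and then pulse, 438 and 721 osteogenic CAR cells (Alpl, Wif1, Spp1 and 8 more markers), 3658 and 3561 adipogenic CAR cells (Lepr, Cxcl12, Kitl and 9 more), 304 and 445 osteoblasts (Bglap, Col1a1 and 8 more), 293 and 311 endothelial cells, and 2718 and 2973 blood cells. Each of the 5 classes had all markers of its own list detected. The gates use these markers, and markers of a list also had UMIs in other classes, so this is no check of the classes. The libraries held 82939659 UMIs (chase) and 89009901 UMIs (pulse), and 52 barcodes occurred in both. Each group is 1 library. There is no replicate check and no test of any difference, and every interval below is an exact 95% interval that covers counting error only. A ratio is called past the threshold when it reaches 1.5-fold in either direction with an interval that excludes 1.

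Adipoq transcripts were concentrated in adipogenic CAR cells. That class held 50245 of the 59211 Adipoq UMIs of kept chase cells (84.9%) and 57678 of the 73107 of kept pulse cells (78.9%). Its level was 2056 CPM (2038 to 2074) in chase and 1975 CPM (1959 to 1991) in pulse, and after thinning every cell to 2000 UMIs, 91.5% of chase cells and 90.9% of pulse cells still showed at least 1 Adipoq UMI (97.5% and 97.9% before thinning). The single cells ranged widely, with a median of 1882 CPM in chase and 1776 CPM in pulse and 10th to 90th percentiles of 596 to 3843 CPM (chase) and 523 to 3818 CPM (pulse).

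Osteogenic CAR cells carried less Adipoq, with 266 CPM (250 to 283) in chase and 475 CPM (459 to 492) in pulse. The level was 0.130 times that of adipogenic CAR cells in chase (0.122 to 0.138) and 0.241 times in pulse (0.232 to 0.249). In the chase library 27.0% of osteogenic CAR cells had an Adipoq UMI after thinning (45.4% before), against 91.5% of adipogenic CAR cells, and in the pulse library the shares were 44.1% (60.9% before) and 90.9%. The size of this gap depends on how CAR cells are divided. With an earlier division, by osteogenic marker UMIs alone, the osteogenic-to-adipogenic ratio was 0.268 in chase and 0.433 in pulse, and with joint clusters it was 0.213 in chase and 0.285 in pulse. All of these lie below 1 by more than 1.5-fold.

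The other classes held little Adipoq. Osteoblasts had 23.7 CPM (19.9 to 28.0) in chase and 32.0 CPM (28.5 to 35.8) in pulse, and blood cells 30.9 CPM (29.0 to 32.9) and 36.4 CPM (34.1 to 38.9). After thinning, 2.39% of osteoblasts in chase and 3.64% in pulse had an Adipoq UMI, against 5.86% and 5.64% of blood cells, which are not known to make the hormone. Before thinning the shares were 20.1% and 22.0% of osteoblasts and 20.9% and 16.8% of blood cells. The osteoblast shares lay below the blood shares after thinning, while the pulse share lay above before it. Median depths were 18770 and 22230 UMIs in osteoblasts and 9933 and 6245 in blood cells. At depths this unlike the shares cannot set a background level, so neither presence nor absence of expression is read from them. The pulse level of osteoblasts lay above the 25.9 CPM of monocytes and macrophages with an interval of the ratio that excludes 1. After thinning, at least 2 UMIs were found in 0.341% of chase and 1.14% of pulse osteoblasts, against 0.870% of chase and 0.659% of pulse blood cells. The highest single osteoblast held 26 UMIs in chase and 21 in pulse. The source of these UMIs was not tested. In the same osteoblasts the tdTomato reporter stood at 1515 CPM in chase and 387 CPM in pulse.

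Endothelial cells lay between, with 168 CPM (152 to 187) of Adipoq in chase and 222 CPM (204 to 242) in pulse. After thinning, 20.3% and 22.8% of them had a UMI, more than among blood cells of the same library (median depths of 6657 and 6813 UMIs). The gates allowed endothelial cells more adipogenic CAR marker UMIs than blood cells or osteoblasts. Median adipogenic CAR marker UMIs per 10000 were 51.4 in chase and 60.5 in pulse endothelial cells, against 15.1 and 16.5 in blood cells. The classes were thus not held to the same limit, and the part of this in the higher endothelial Adipoq was not tested. The ratio of Adipoq to Cxcl12, the leading CAR cell chemokine, was close to that of adipogenic CAR cells. Endothelial cells held 7.39 Adipoq UMIs per 100 Cxcl12 UMIs in chase (6.63 to 8.21) and 9.56 in pulse (8.73 to 10.4), and adipogenic CAR cells held 8.09 (8.01 to 8.16) and 9.39 (9.31 to 9.47). The blood figures were 7.40 in chase and 8.33 in pulse, those of osteoblasts 6.40 and 7.84, and those of osteogenic CAR cells 3.72 and 6.70. Against Kitl, the gene of stem cell factor, endothelial cells held 102.5 Adipoq UMIs per 100 in chase (88.4 to 119) and 209.5 in pulse (180 to 244), and adipogenic CAR cells 100.4 and 144.5, so the ratios matched in chase and not in pulse for this gene. Per 100 Lepr UMIs endothelial cells held 185 and 329, and adipogenic CAR cells 185 and 288. Other genes gave lower endothelial figures, at 74.1 and 62.8 against 133.9 and 70.8 for Lpl. For tdTomato they were 43.0 and 50.6 against 96.9 and 90.1. The summed adipogenic CAR marker level of endothelial cells was 7541 CPM in chase and 8077 CPM in pulse, with 11 of the 12 markers at 20 CPM or more in each library. The part of free RNA and of cell doublets in the endothelial Adipoq level was not tested.

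In the order of Adipoq levels over 9 classes and blood lineages, adipogenic CAR cells, osteogenic CAR cells, endothelial cells and neutrophils followed each other in both libraries, each of the first 3 above its neighbour with an interval that excluded a ratio of 1. From neutrophils (46.8 CPM in chase, 62.6 CPM in pulse) downward the chase neighbours overlapped, and so did the pulse neighbours from monocytes and macrophages (25.9 CPM) downward. Classes further apart could differ, since in chase the neutrophil interval (41.8 to 52.3) lay above that of monocytes and macrophages (24.0 to 29.7). The plot of levels by class shows this order. The place of endothelial cells above neutrophils carries the difference in gate limits given above, since neutrophils were taken from the blood class.

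**Figure D1:**
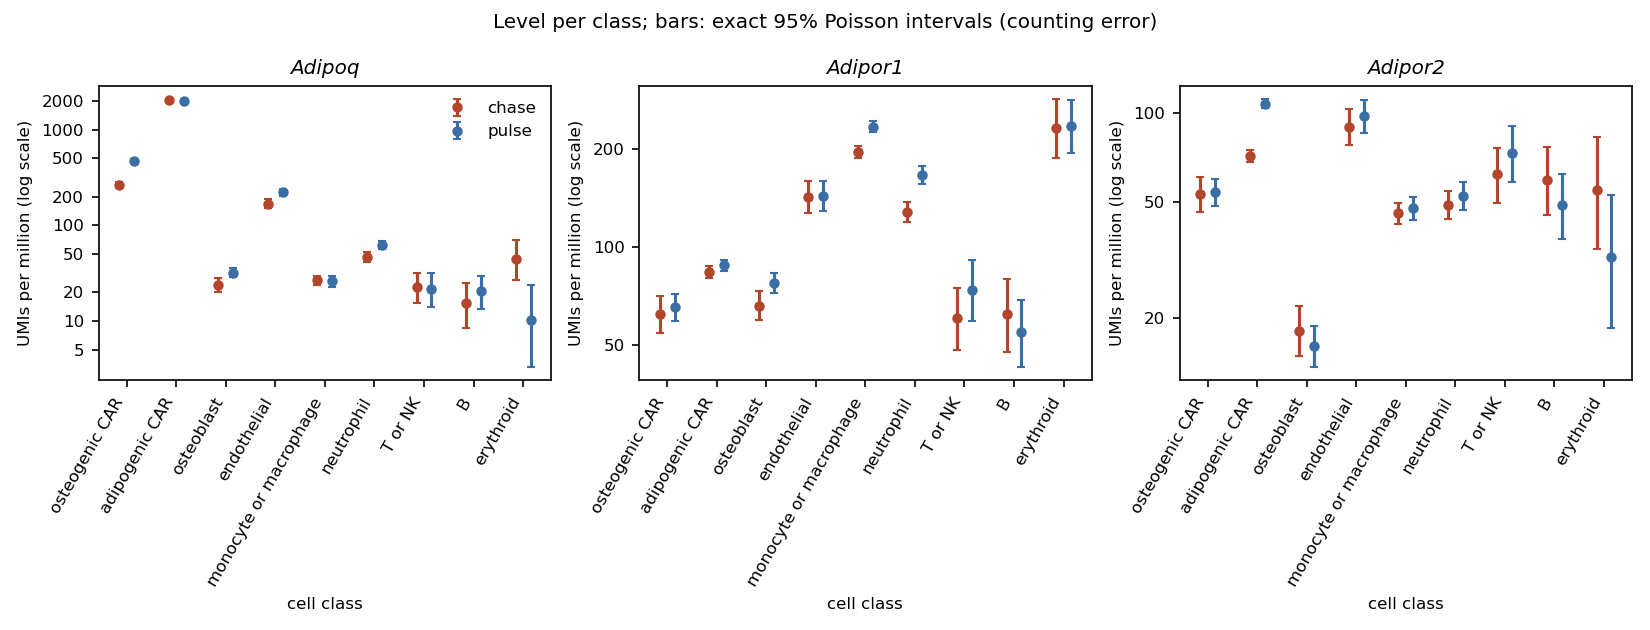
Level of Adipoq, Adipor1 and Adipor2 (CPM, log axis) in 9 cell classes and blood lineages, chase left of pulse in each class, with exact 95% Poisson intervals. Adipoq peaks in adipogenic CAR cells (2056 CPM chase, 1975 CPM pulse), Adipor1 in erythroid cells and in monocytes and macrophages, and Adipor2 is lowest in osteoblasts (18.2 CPM chase, 16.1 CPM pulse).

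**Figure D2:**
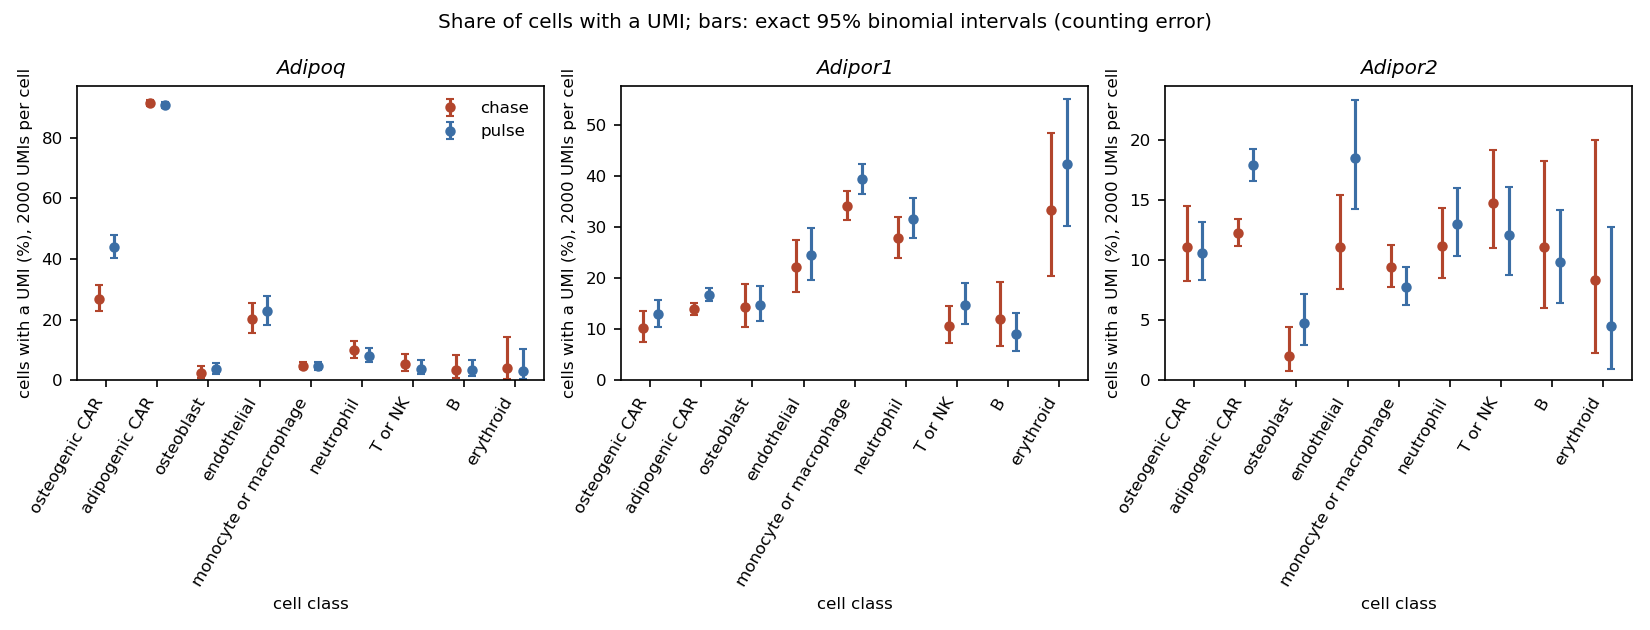
Share of cells with at least 1 UMI of each gene after thinning every cell to 2000 UMIs (percent), chase left of pulse, with exact 95% binomial intervals. For Adipoq, 91.5% of chase and 90.9% of pulse adipogenic CAR cells have a UMI, against 5.86% and 5.64% of the whole blood class, which is not drawn. Monocytes and macrophages, neutrophils, T or NK cells and B cells are drawn from that class, and its other cells are not. Erythroid cells are drawn whether or not they lie in it.

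Between the libraries, Adipoq was nearly level in adipogenic CAR cells and lower in the chase library in osteogenic CAR cells. The chase-to-pulse ratio was 1.04 in adipogenic CAR cells (1.03 to 1.05) and 0.560 in osteogenic CAR cells (0.522 to 0.602), while the median log2 ratio over all genes tested was -0.02 in adipogenic and -0.06 in osteogenic CAR cells. It was 0.742 in osteoblasts (0.602 to 0.910), 0.758 in endothelial cells (0.662 to 0.867) and 0.849 in blood cells (0.774 to 0.930). The difference in osteogenic CAR cells also depends on the division of CAR cells, since it was 0.790 (0.750 to 0.832), short of 1.5-fold, with classes taken from joint clusters. The summed osteogenic marker level of the osteogenic class also differed, at 50679 CPM in chase and 34767 CPM in pulse, as did those of erythroid markers, at 1479 CPM and 79.1 CPM, fibroblast markers, at 1672 CPM and 864 CPM, osteocyte markers, at 456 CPM and 183 CPM, and chondrocyte markers, at 205 CPM and 92.3 CPM. The part of these in the Adipoq ratio was not tested.

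The level of Adipoq followed the balance of markers over the cells of the 2 CAR classes. The osteogenic gate set no minimum of Lepr, Cxcl12 or other adipogenic CAR markers, so CAR identity was not required of the cells in the most osteogenic bins. CAR cells were set into 7 bins by their osteogenic-to-adipogenic marker ratio, from below 0.0625 to above 4. Adipoq was 2396 CPM in chase (675 cells) and 3792 CPM in pulse (150 cells) in the most adipogenic bin. It was 105 CPM in chase (179 cells) and 78.6 CPM in pulse (147 cells) in the most osteogenic bin, which was 22.7-fold lower than the most adipogenic bin in chase and 48.3-fold lower in pulse. Levels stepped down at each bin in both libraries, as the plot along the marker ratio shows. Within bins the chase-to-pulse ratio was 0.632 (0.607 to 0.658) in the most adipogenic bin, 0.848 (0.831 to 0.866) in the second, 1.00 (0.981 to 1.02) in the third and 0.913 (0.872 to 0.955) in the fourth. It was 0.649 (0.593 to 0.710) and 0.632 (0.541 to 0.736) in the fifth and the sixth, and 1.34 (1.07 to 1.69) in the most osteogenic one. The whole adipogenic class sums bins that differ in this ratio, and 675 of 3658 chase cells but 150 of 3561 pulse cells of that class lay in the most adipogenic bin.

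**Figure D3:**
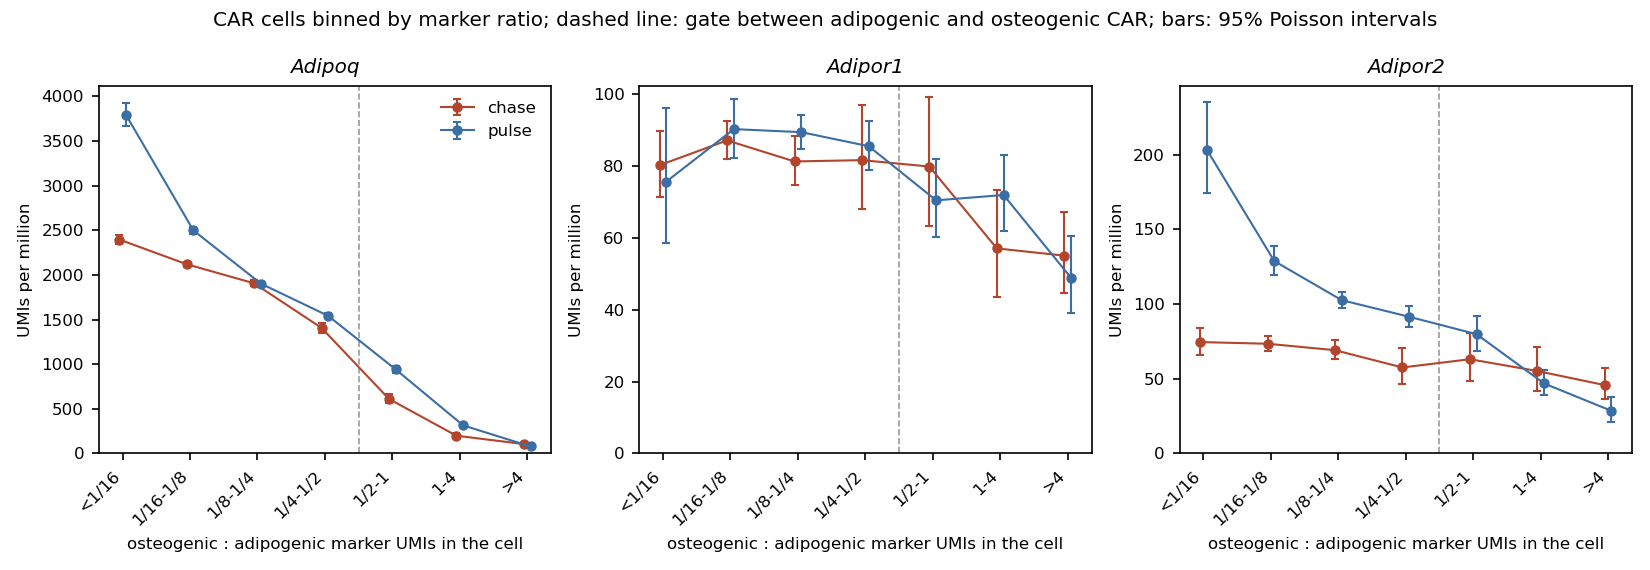
CAR cells binned by the ratio of osteogenic to adipogenic marker UMIs in the cell (x axis, most adipogenic at left) against the level of each gene (CPM), chase in red and pulse in blue, with exact 95% Poisson intervals; the dashed line is the division between the 2 CAR classes. Adipoq steps down in both libraries, the last bin of Adipor2 is 1.63-fold lower than the first in chase and 7.13-fold lower in pulse, and the last bin of Adipor1 is 0.686 times the first in chase and 0.646 times in pulse.

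Adipor1, the receptor best known for AMPK signalling, was broadly transcribed and highest outside the stroma. Erythroid cells had 232 CPM (187 to 285) in chase and 236 CPM (195 to 283) in pulse, in only 49 and 68 cells. They were gated on erythroid markers whether or not they passed the blood gate, so the blood class does not hold all of them. Monocytes and macrophages had 196 CPM (189 to 204) in chase and 235 CPM (225 to 245) in pulse, and their intervals against the erythroid level did not exclude a ratio of 1. Neutrophils had 128 CPM in chase and 167 CPM in pulse, and endothelial cells 143 CPM and 144 CPM. The blood class as a whole had 135 CPM (131 to 139) in chase and 169 CPM (164 to 174) in pulse. Within it T or NK cells had 60.4 and 74.0 CPM and B cells 62.2 and 54.7 CPM.

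In stroma Adipor1 was lower. Osteogenic CAR cells had 62.2 CPM (54.5 to 70.6) in chase and 65.4 CPM (59.4 to 71.9) in pulse, adipogenic CAR cells 84.1 CPM (80.5 to 87.8) and 88.1 CPM (84.7 to 91.6), and osteoblasts 66.1 CPM (59.7 to 73.1) and 77.6 CPM (72.1 to 83.3). The osteogenic-to-adipogenic ratio was 0.740 in chase (0.644 to 0.847) and 0.742 in pulse (0.669 to 0.822), with intervals that exclude 1 in both libraries and short of 1.5-fold. With TMM scaling the pulse ratio was 0.658, past 1.5-fold. Chase blood cells lay below pulse blood cells at a ratio of 0.797 (0.763 to 0.832), with 0.835 in monocytes and macrophages and 0.770 in neutrophils. In adipogenic CAR cells the chase-to-pulse ratio was 0.954 (0.900 to 1.01), in osteogenic CAR cells 0.951 (0.808 to 1.12) and in endothelial cells 0.994 (0.850 to 1.16), with intervals that include 1. In osteoblasts it was 0.853 (0.752 to 0.966). After thinning, an Adipor1 UMI was found in 10.4% of chase and 13% of pulse osteogenic CAR cells, 14.0% and 16.8% of adipogenic CAR cells, and 34.3% and 39.5% of monocytes and macrophages. In the order of levels adipogenic CAR cells stood above osteoblasts with an interval that excluded 1 in both libraries, an order that TMM scaling turned round. From osteoblasts downward, through osteogenic CAR cells, T or NK cells and B cells, each class did not differ from the next beyond counting error. Classes further apart could differ. In pulse the osteoblast interval (72.1 to 83.3) lay above those of osteogenic CAR cells (59.4 to 71.9) and B cells (42.8 to 68.8).

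Adipor2, the receptor best known for PPARalpha signalling, had a different distribution. Endothelial cells had 89.7 CPM (77.6 to 103) in chase and 97.7 CPM (85.6 to 111) in pulse, where 1 cell held 18 of the 233 UMIs. Fat cell transcripts were also present in the pulse endothelial class. Its 10 mature adipocyte markers summed to 535 CPM, against 46.6 CPM in pulse adipogenic CAR cells, and 1 cell held 1185 of its 1193 Cfd UMIs. In chase the sums were 49.2 and 50.5 CPM. The part of such cells in the endothelial levels was not tested. Osteogenic CAR cells had 53.0 CPM (46.0 to 60.8) in chase and 53.8 CPM (48.3 to 59.7) in pulse, and adipogenic CAR cells 71.4 CPM (68.1 to 74.8) and 107.5 CPM (104 to 111). The endothelial level was 1.26 times the adipogenic CAR level in chase (1.08 to 1.46) and 0.909 times in pulse (0.792 to 1.04), where the interval includes 1. Blood cells had 48.5 CPM in chase and 52.2 CPM in pulse. In chase the levels of T or NK cells, B cells, erythroid cells, osteogenic CAR cells, neutrophils, and monocytes and macrophages ran without a gap beyond counting error between neighbours. Osteoblasts were lowest, with 18.2 CPM (14.9 to 22.0) in chase and 16.1 CPM (13.7 to 18.8) in pulse, 0.255 times the adipogenic CAR level in chase (0.207 to 0.310) and 0.150 times in pulse (0.127 to 0.176). Adipor1 in the same osteoblasts was 0.787 times the adipogenic CAR level in chase and 0.880 times in pulse. Osteoblasts gave 315519 CPM (chase) and 324181 CPM (pulse) to their 10 marker genes alone, and TMM scaling, which sets the level of most genes equal between classes, turned the Adipor1 direction, to 1.27 times in chase and 1.47 times in pulse. The Adipor2 ratio stayed below 1 with it, at 0.413 in chase and 0.25 in pulse, and the endothelial Adipor2 ratio was 1.04 in chase and 0.744 in pulse. After thinning, 2.05% of chase and 4.77% of pulse osteoblasts had an Adipor2 UMI, against 12.3% and 17.9% of adipogenic CAR cells.

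Of the 3 genes, Adipor2 was the one past 1.5-fold between the libraries in adipogenic CAR cells, where 13.5% of 12604 genes tested were past it in either direction and 6.16% in the lower direction. The chase-to-pulse ratio was 0.664 (0.626 to 0.704), just past the threshold, and 0.673 with classes taken from joint clusters, just short of it. The ratio was 0.665 (0.623 to 0.709) over adipogenic CAR cells without any UMI of 10 mature adipocyte markers. In the other classes the intervals included 1, with 0.986 in osteogenic CAR cells (0.825 to 1.18), 1.13 in osteoblasts (0.873 to 1.46), 0.918 in endothelial cells (0.755 to 1.11) and 0.929 in blood cells (0.862 to 1.00). Past 1.5-fold in the other chase-to-pulse comparisons were 1 of the 3 genes in osteogenic CAR cells (Adipoq, where 12.3% of genes tested were) and 0 of 3 in osteoblasts (9.27%), endothelial cells (6.70%) and blood cells (4.36% higher and 7.65% lower). All 3 genes had at least 50 UMIs over both libraries in each class and so passed the filter on low counts.

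Adipogenic CAR cells of the 2 libraries lay largely in different joint clusters, with 2482 chase cells and 107 pulse cells in cluster 2 against 59 chase cells and 1965 pulse cells in cluster 13. Within the 6 clusters that held at least 50 such cells of each library, the Adipor2 chase-to-pulse ratio was 0.589 (0.518 to 0.670) in cluster 0, 0.532 (0.381 to 0.739) in cluster 3 and 0.529 (0.366 to 0.754) in cluster 4. It was 0.834 (0.633 to 1.12) in cluster 2, 0.812 (0.557 to 1.15) in cluster 13 and 1.19 (0.874 to 1.60) in cluster 19, where intervals included 1. The clusters were made without the 3 genes among the variable genes.

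Along the marker ratio Adipor2 was 74.5 CPM in chase and 203 CPM in pulse in the most adipogenic bin, and 45.8 CPM in chase and 28.5 CPM in pulse in the most osteogenic bin. From end to end the most osteogenic bin was 0.614 times the most adipogenic one in chase (0.472 to 0.791) and 0.140 times in pulse (0.100 to 0.193). The chase-to-pulse ratio was 0.367 (0.303 to 0.445) in the most adipogenic bin, 0.674 (0.607 to 0.747) in the third and 1.61 (1.11 to 2.34) in the most osteogenic one. The osteogenic-to-adipogenic class ratio was 0.743 in chase (0.639 to 0.860) and 0.50 in pulse (0.447 to 0.558). With the earlier division of CAR cells the pulse ratio was 0.667, just short of 1.5-fold. Past 1.5-fold between osteogenic and adipogenic CAR cells were 1 of the 3 genes in chase (Adipoq, where 24.2% of 11826 genes tested were past it) and 2 of 3 in pulse (Adipoq and Adipor2, where 19.9% of 12058 were). Adipor1 was 80.2 CPM in chase and 75.6 CPM in pulse in the most adipogenic bin and 55.0 and 48.9 CPM in the most osteogenic one, an end-to-end ratio of 0.686 in chase (0.539 to 0.867) and 0.646 in pulse (0.463 to 0.905). In chase this interval overlaps that of Adipor2, and in pulse the 2 intervals lie apart.

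A small number of adipogenic CAR cells carried transcripts of mature fat cells, such as Plin1, which coats lipid droplets, and Cfd, the adipokine adipsin. In the 50 chase and 56 pulse cells with UMIs of at least 2 of the 10 mature adipocyte markers, Adipor2 was 193 CPM (155 to 238) in chase and 304 CPM (258 to 356) in pulse, against 66.4 CPM and 99.9 CPM in the 3317 and 3139 cells with none. The ratio was 2.91 in chase (2.32 to 3.61) and 3.05 in pulse (2.57 to 3.58). Adipoq was 1.44 times as high in chase (1.36 to 1.52) and 1.69 times in pulse (1.60 to 1.77), at 2886 and 3215 CPM against 2011 and 1908 CPM. Adipor1 had ratios of 1.27 in chase (0.930 to 1.69) and 1.14 in pulse (0.844 to 1.5), whose intervals include 1. Cells with more markers detected were deeper, with median totals of 8871 and 8218 UMIs against 6436 and 7914, and the part of depth was not tested. Cidea and Lep, the gene of leptin, had no UMI in adipogenic CAR cells of either library.

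**Figure D4:**
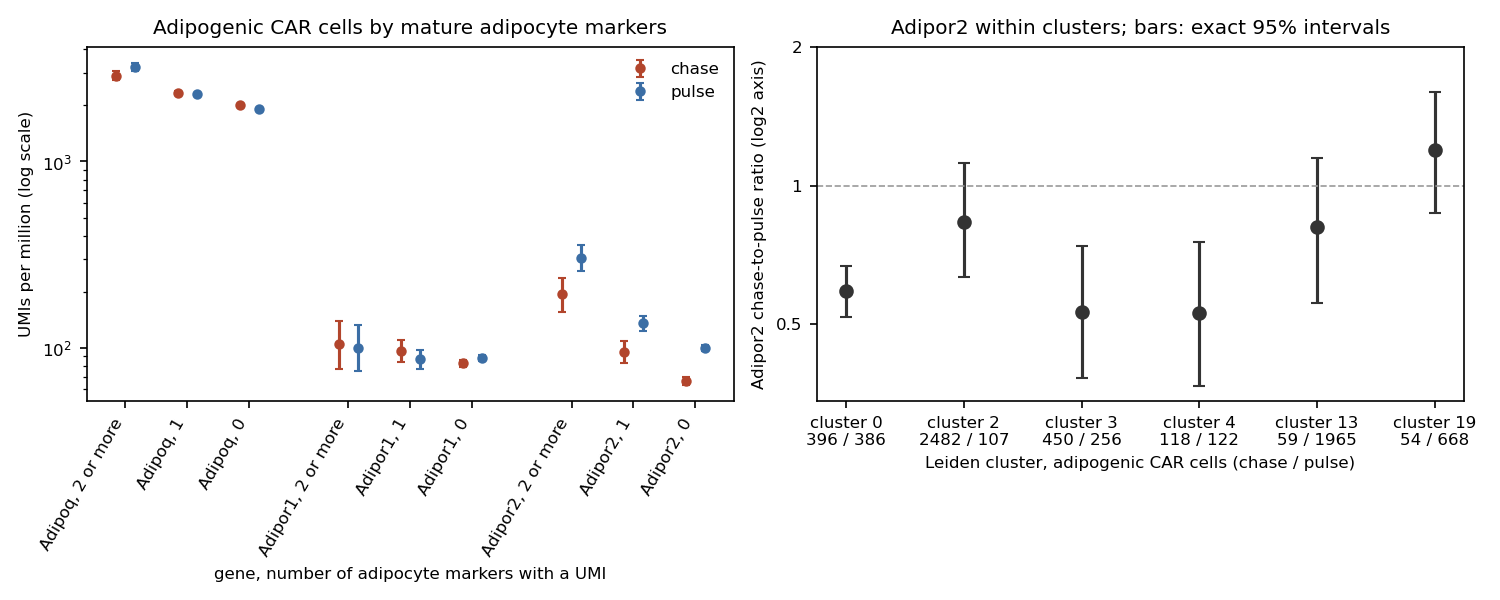
Left, level of each gene (CPM, log axis) in adipogenic CAR cells with 2 or more, 1 or 0 mature adipocyte markers detected, chase left of pulse, with exact 95% Poisson intervals. Right, Adipor2 chase-to-pulse ratio (log2 axis) within joint clusters, with exact 95% intervals and the cell numbers of each library; 5 of the 6 ratios lie below 1, and 3 of these have intervals that exclude 1.

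Hormone and receptor transcripts were also counted together in single cells. After thinning to 2000 UMIs, 12.9% of chase and 15.4% of pulse adipogenic CAR cells had UMIs of both Adipoq and Adipor1, and 11.5% and 16.2% had UMIs of both Adipoq and Adipor2. With Adipoq seen in over 90% of these cells, such shares say little beyond the receptor's own. In osteogenic CAR cells 3.61% in chase (2.04 to 5.89) and 5.68% in pulse (4.05 to 7.71) had both Adipoq and Adipor1, which is 1.29 and 0.99 times the product of the separate shares. For Adipoq and Adipor2 the shares were 3.86% (2.22 to 6.19) and 6.13% (4.43 to 8.22), 1.29 and 1.31 times the product. At least 1 receptor was seen in 20.2% of chase and 22.9% of pulse osteogenic CAR cells, 32.7% and 36.3% of blood cells, and 24.6% and 31.2% of adipogenic CAR cells. These shares depend on depth. Without thinning, 39.5% of chase and 47.6% of pulse adipogenic CAR cells had an Adipor1 UMI, and 33.2% and 50.7% an Adipor2 UMI.

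Among 10 transcription factors and cofactors known to act at the Adipoq gene, 5 were past 1.5-fold lower in osteogenic than in adipogenic CAR cells in each library and 0 were higher, where 13.1% of all genes tested were lower and 11.1% higher in chase, and 9.26% lower and 10.7% higher in pulse. Sirt1 and Crebbp are the cofactors of the list. The median log2 ratio of the list was -0.51 in chase and -0.57 in pulse, beside 0.00 and 0.04 over all genes. Pparg, the nuclear receptor that drives fat cell formation, was 11.8 CPM in chase and 28.7 CPM in pulse osteogenic CAR cells, against 63.1 CPM and 101 CPM in adipogenic CAR cells. Its osteogenic-to-adipogenic ratio was 0.187 in chase (0.136 to 0.252) and 0.284 in pulse (0.244 to 0.329). Cebpa, which acts with Pparg in adipogenesis, had ratios of 0.335 and 0.330, Nr1h3 (LXRalpha) 0.407 and 0.587, and Foxo1 0.633 and 0.558. The other past the threshold was Sirt1 (0.516) in chase and Cebpb (0.524) in pulse.

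Between the libraries 1 of the 10 was past 1.5-fold lower and 1 higher in adipogenic CAR cells, where 6.16% of all genes tested were lower and 7.31% higher. Pparg was the lower one, at a chase-to-pulse ratio of 0.624 (0.587 to 0.664). Sirt1, a deacetylase, was the higher one, at 51.3 CPM in chase and 34.2 CPM in pulse, a ratio of 1.5 (1.38 to 1.63). Cebpa had a ratio of 1.08, Crebbp 1.19 and Nfatc4 1.14, all short of the threshold. In osteogenic CAR cells Pparg (0.412) and Nr1h3 (0.650) were past 1.5-fold lower in chase, and 0 of the 10 were higher, where 7.28% of all genes tested were lower and 5.02% higher.

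Of 18 genes of adiponectin signalling, 15 were tested between osteogenic and adipogenic CAR cells in chase and 16 in pulse, with 3 lower in each library and 1 higher in chase and 0 in pulse, beside 13.1% lower and 11.1% higher over all genes in chase and 9.26% and 10.7% in pulse. The median log2 ratio of the list was -0.18 in chase and -0.19 in pulse. Sirt1 stands in this list and in that of the transcription factors and cofactors. Prkaa2, the alpha 2 catalytic subunit of AMPK, was 10.5 CPM in chase and 9.67 CPM in pulse osteogenic CAR cells, against 30.1 CPM and 20.0 CPM in adipogenic CAR cells, a ratio of 0.349 (0.247 to 0.479) and 0.483 (0.367 to 0.626). Prkab2, the beta 2 subunit, had ratios of 0.478 and 0.643, and Sirt1 0.516 in chase, with 0.777 in pulse, short of the threshold. Prkag2, a gamma subunit, had ratios of 1.54 in chase, past the threshold, and 1.47 in pulse, short of it. Cdh13 (T-cadherin), a cell-surface binding protein of large adiponectin complexes, was at 18.7 CPM in chase and 18.9 CPM in pulse endothelial cells and at 2.21 and 2.91 CPM in adipogenic CAR cells. In pulse osteogenic CAR cells it had 3 UMIs, a ratio to adipogenic CAR cells of 0.156 (0.031 to 0.471).

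In adipogenic CAR cells 17 of the 18 signalling genes were tested between the libraries, with 3 higher in chase (Prkaa2 at 1.51, Sirt1 as given above and Acacb at 1.63 with 45 and 33 UMIs) and 1 lower (Ppara at 0.471 with 28 and 71 UMIs), where 7.31% of all genes were higher and 6.16% lower. The median log2 ratio of the list was 0.00, beside -0.02 over all genes. Appl2, an adaptor related to APPL1, had a ratio of 1.30. Appl1 itself was 61.7 CPM in chase and 70.8 CPM in pulse osteogenic CAR cells and 70.0 and 72.9 CPM in adipogenic CAR cells.

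Of 11 genes for assembly and secretion of adiponectin, all were tested, with 3 past 1.5-fold lower in osteogenic than in adipogenic CAR cells in chase, 1 in pulse and 0 higher, beside 13.1% lower over all genes in chase and 9.26% in pulse, and median log2 ratios of -0.05 in chase and -0.19 in pulse. Plod3, a lysyl hydroxylase that modifies collagen-like domains, had ratios of 0.551 in chase and 0.661 in pulse. The chaperone Hspa5 had ratios of 0.584 in chase and 0.698 in pulse, of which the pulse value is short of the threshold, and Ero1a (listed as Ero1l), an endoplasmic reticulum oxidase, 0.665 and 0.735. Erp44, which retains adiponectin in the secretory pathway, had ratios of 0.968 and 0.862, and P4hb 1.19 and 1.06. Between the libraries 1 of the 11 was past 1.5-fold in adipogenic CAR cells (Gstk1, 0.662), where 6.16% of all genes were lower, and Plod1 (0.730), Erp44 (0.806), P4hb (0.841) and Calr (1.23) were not.

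Among the relatives of the receptors, 6 of 9 PAQR genes were tested, with median log2 ratios of -0.14 in chase and -0.17 in pulse between osteogenic and adipogenic CAR cells. In chase 1 was higher and 2 were lower, and in pulse 2 and 2, beside 11.1% higher and 13.1% lower over all genes in chase and 10.7% and 9.26% in pulse. Mmd had an osteogenic-to-adipogenic ratio of 0.287 in chase (0.221 to 0.367) and 0.375 in pulse (0.318 to 0.440), and Paqr8, a membrane progestin receptor, 0.221 (0.153 to 0.310) and 0.470 (0.351 to 0.621). Paqr7, another membrane progestin receptor, was past 1.5-fold higher in chase (1.68), and Mmd2 (1.91) and Paqr3 (1.65, with 27 and 72 UMIs) in pulse. Between the libraries 6 PAQR genes were tested in adipogenic CAR cells, with a median log2 ratio of -0.05. Of these 1 was higher and 1 lower, where 7.31% of all genes were higher and 6.16% lower. The higher one, Paqr8, was 41.5 CPM in chase and 18.0 CPM in pulse, a chase-to-pulse ratio of 2.31 (2.08 to 2.57), and the lower one, Mmd2, had a ratio of 0.498 (0.409 to 0.603). Among relatives of the hormone, 5 of 13 were tested, with 2 higher and 2 lower in osteogenic CAR cells in each library, beside the same shares over all genes (11.1% and 13.1% in chase, 10.7% and 9.26% in pulse), and median log2 ratios of 0.36 in chase and 0.13 in pulse. C1qtnf6 was higher in osteogenic CAR cells, with ratios of 1.99 in chase and 1.63 in pulse, as was C1qtnf1, with 1.93 and 1.71. C1qtnf7 was lower, with 7 and 12 UMIs in osteogenic CAR cells and ratios of 0.096 (0.038 to 0.198) and 0.125 (0.064 to 0.221), and so was C1qtnf2, with 3 UMIs in each library and ratios of 0.221 (0.045 to 0.668) and 0.174 (0.035 to 0.528). In adipogenic CAR cells C1qtnf6 (0.635) and C1qtnf12 (0.650) were past 1.5-fold lower in chase, where 6.16% of all genes were.

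**Figure D5:**
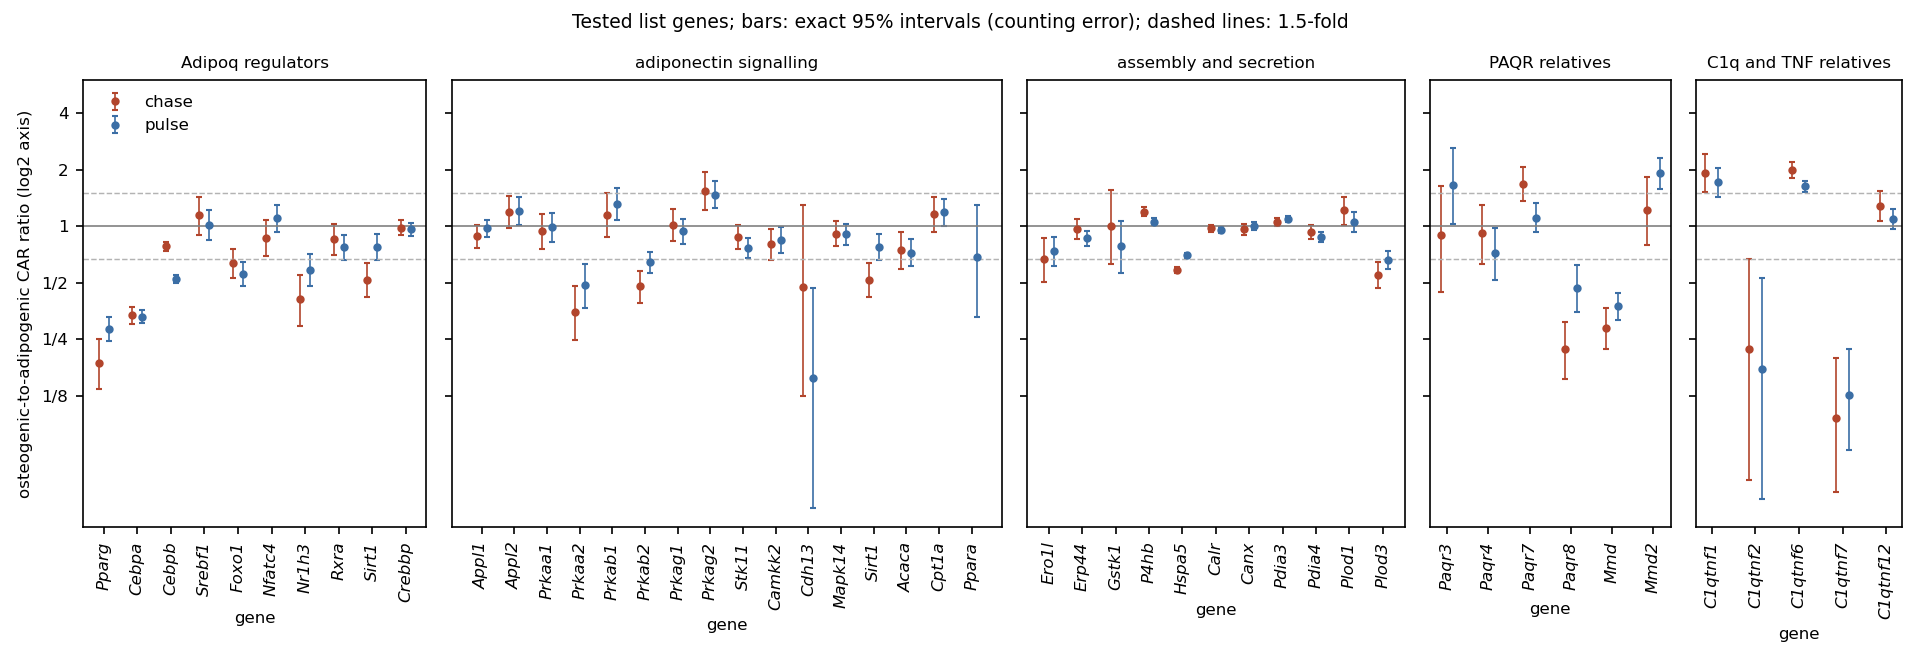
Osteogenic-to-adipogenic CAR ratio (log2 axis) of every tested gene in the 5 lists, chase left of pulse, with exact 95% intervals; dashed lines mark 1.5-fold. Pparg lies at 0.187 in chase and 0.284 in pulse, C1qtnf7 at 0.096 and 0.125, and C1qtnf6 at 1.99 and 1.63.

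The genes whose levels followed each of the 3 most closely were taken by Pearson's r of log2(CPM + 5) over 17 class-by-library points with at least 50 cells. They were ranked among 11125 genes with at least 500 UMIs. All cell type markers, such as Lepr and Cxcl12, and mitochondrial, ribosomal protein and predicted genes were left out, so none of these could be named. The points share their 2 libraries and their depth. The genes most like Adipoq were Kng1 (r = 0.986), Bmp6 (0.986), Rarres2 (0.982), Ms4a4d (0.976) and Rgs7bp (0.976). Kng1, the gene of kininogen, was 581 CPM in chase and 641 CPM in pulse adipogenic CAR cells, and Rarres2, the gene of the adipokine chemerin, 562 and 402 CPM. Most like Adipor1 were the myeloid genes Sirpa (r = 0.929) and Cd14 (0.906), then Tfec (0.899), Cyb5r1 (0.894) and Gpr157 (0.872). Most like Adipor2 were Col4a3bp (r = 0.943), Tmed5 (0.932), Pfkl (0.922), Cpne1 (0.913) and Hdac1 (0.904). Over the same points Adipoq had r = 0.547 with Adipor2 and -0.153 with Adipor1, the receptors had 0.037 with each other, and tdTomato had 0.586 with Adipoq.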

How the data were processed

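The authors deposited 1 matrix of raw UMI counts per library, made with Cell Ranger 6.0.2 per the file headers (2.1.1 per the submitters' processing notes) on mm10, with barcodes already called as cells. No source used here gives the treatment of intronic reads. The cell filter required 500 genes and 1000 UMIs and a mitochondrial share below 10%, which left 8445 of 10046 chase barcodes and 9390 of 10608 pulse barcodes, with median depths of 6592 and 7067.5 UMIs. Classes were gated on marker genes. Erythroid cells were taken at 1000 or more erythroid marker UMIs per 10000, inside or outside the blood class. A cell that passed gates of 2 compartments stayed in no class, as a treatment of doublets, and Scrublet, which marked 110 chase and 178 pulse cells, was run as an alternative. The limit on adipogenic CAR marker UMIs per 10000 was 250 for endothelial cells and 125 for blood cells and osteoblasts. A CAR cell was called osteogenic when its osteogenic marker UMIs were at least 0.5 times its adipogenic marker UMIs, and 112 of 4096 chase and 356 of 4282 pulse CAR cells lay at ratios of 0.375 to 0.625. It also needed 50 osteogenic marker UMIs per 10000 and 4 osteogenic markers, with no minimum of adipogenic CAR markers. The gate thresholds were settled after the data had been seen. An earlier CAR division, at 125 osteogenic marker UMIs per 10000, was replaced after the levels of the 3 genes under it were known, and its values are given beside the results. The members and gene lists were likewise chosen with earlier results of these data known.

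UMIs were summed per class and library and divided by all UMIs of those cells (CPM). Levels carry exact Poisson intervals, ratios exact conditional intervals and shares exact Clopper-Pearson intervals, all at 95%. Genes with at least 50 UMIs over both sides were compared. With 1 library per group no p-value was computed. Shares used cells thinned to 2000 UMIs, leaving out shallower cells (23 chase and 52 pulse osteogenic CAR cells, 253 and 137 adipogenic CAR cells, 11 and 5 osteoblasts). Joint clusters came from scanpy 1.11.5 with the Leiden method of igraph 0.11.9, without the 3 genes, and TMM factors from edgeR 4.0.16. The calculations were tested on simulated data. From each list, members at 20 CPM or more with the largest ratios were named, up to 4 for each of the 2 contrasts. Prkag2 in the comparison of CAR classes and Cdh13, Acacb, Ppara, Gstk1, Paqr3, C1qtnf2 and C1qtnf7 were named after their values were seen, because counts of calls include them. Alternatives were other cell and gene filters, scalings, gates and clusters. No library could be left out.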

Additional observations from a re-analysis of the deposited data

Results flagged for a closer look

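The chase-to-pulse ratio of Adipoq lay on opposite sides of 1 in the CAR classes, at 0.560 in osteogenic CAR cells (0.522 to 0.602) and 1.04 in adipogenic CAR cells (1.03 to 1.05), each with an interval that excludes 1. Each class of each library is 1 sample, and the difference between the ratios was not tested. No bin of the adipogenic class lay above 1 with an interval that excludes it, at 0.632, 0.848, 1.00 and 0.913 from the most adipogenic bin on. Within joint clusters the ratio was 0.834, 0.894 and 0.840 in clusters 0, 2 and 4 and 1.09 in clusters 13 and 19, with intervals that exclude 1, and 0.995 in cluster 3.

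Cells left in no class also carried Adipoq. Of these the comparisons use only erythroid cells that lie outside the blood class. Their level was 589 CPM (575 to 604) in chase over 1034 cells and 712 CPM (698 to 725) in pulse over 1379 cells, from 6440 and 10569 UMIs. Cells with both blood and CAR markers numbered 391 in chase and 598 in pulse, and those with both blood and endothelial markers 31 and 45. Of the cells in no class Scrublet marked 88 in chase and 156 in pulse.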

How the results depend on the processing

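The 12 ratios of the 3 genes between the CAR classes and between the libraries were recomputed under 10 alternatives. No ratio past 1.5-fold changed direction. The Adipor2 chase-to-pulse ratio in osteogenic CAR cells, 0.986 and not past it, crossed 1 under 1 of them (1.03 in cells with no mature adipocyte marker). A gate with 1 more marker, removal of cells marked by Scrublet and removal of barcodes shared by the libraries each moved 0 of the 12. With classes from joint clusters, the Adipoq osteogenic-to-adipogenic ratio was 0.213 in chase and 0.285 in pulse, and the Adipoq chase-to-pulse ratio was 0.790 in osteogenic and 1.06 in adipogenic CAR cells, so the osteogenic call ended, as did that of Adipor2 in adipogenic CAR cells (0.673). With the earlier gate by osteogenic marker UMIs alone, listed as an alternative after seeing the data, the osteogenic-to-adipogenic ratio was 0.268 (chase) and 0.433 (pulse) for Adipoq, 0.832 (pulse) for Adipor1 and 0.667 (pulse) for Adipor2, whose call ended. Under it the osteogenic chase-to-pulse ratio was 0.640 for Adipoq and 0.784 for Adipor2. TMM factors shifted all log2 ratios to adipogenic CAR cells by -0.15 (chase) and -0.17 (pulse) in osteogenic CAR cells and by 0.70 and 0.74 in osteoblasts. With them the osteogenic-to-adipogenic ratio was 0.117 (chase) and 0.213 (pulse) for Adipoq, 0.658 (pulse) for Adipor1, which then passed 1.5-fold, and 0.444 (pulse) for Adipor2. Scaled without mitochondrial and ribosomal genes, that ratio was 0.138 (chase) and 0.256 (pulse) for Adipoq, with a chase-to-pulse ratio of 1.02 in adipogenic CAR cells. Without the cell filter the pulse Adipoq osteogenic-to-adipogenic ratio was 0.231. By the mean of cell CPM the osteogenic chase-to-pulse ratio of Adipoq was 0.521, and in cells with no mature adipocyte marker, added after seeing the data, the adipogenic one was 1.05. Without the filter on low counts, 866 endothelial genes were past 1.5-fold between the libraries, against 567 with it. Thinning to 5000 UMIs moved 29 of 30 shares, and no thinning or a minimum of 2 UMIs moved all 30.

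No paired analysis was possible because each group is 1 library, and leaving out a replicate was not run for the same reason. Depth limits several values: Adipor2 rests on 202 UMIs in chase and 356 in pulse in osteogenic CAR cells and on 105 and 155 in osteoblasts, and erythroid Adipoq on 18 and 5.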
